A study of Mus musculus with 15 samples.

Results

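The genes described here are 10 genes of cholesterol efflux and of the liver X receptors (LXRs): Nr1h2, Nr1h3, Abca1, Abcg1, Apoe, Srebf1, Mylip, Lpcat3, Npc1 and Npc2. They were taken by gene name from tables of 57132 genes, and each name matched 1 row. The rule used gene names and no threshold. These genes and the related lists below were, however, chosen with earlier results of these data known. Their shares set beside all genes are therefore descriptions and no independent support. The study sequenced mRNA in 15 libraries of mouse podocytes, which are epithelial cells wrapped around the kidney's glomerular capillaries. Libraries fell into 5 groups of 3. In the treatment tables, Col4a3-/- cells received vehicle, exogenous apolipoprotein M (ApoM, a lipoprotein-bound carrier of sphingosine-1-phosphate) for 24 h, or CYM50358, which blocks S1PR4, a receptor for that lipid, for 24 h. In the genotype table, Col4a3+/+ (wild-type) and Col4a3-/- cells both received vehicle. Col4a3 encodes a chain of the collagen IV network of the glomerular basement membrane, whose loss causes Alport syndrome. Every treated library is therefore a knockout library, ApoM and CYM50358 were not tested in wild-type cells, and doses and the time in vehicle are not given in the labels. Whether a group's 3 libraries are separate cultures is not stated, so each p-value reflects library-to-library spread that may be technical.

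LXRs are nuclear receptors that bind oxysterols and desmosterol and, with a retinoid X receptor partner, switch on genes that lower free cholesterol in the cell. Their targets export cholesterol (Abca1, Abcg1, with Apoe as an acceptor), reduce its uptake (Mylip, which marks lipoprotein receptors for degradation), raise fatty acid synthesis (Srebf1) and remodel membrane phospholipids (Lpcat3). Npc1 and Npc2 pass cholesterol out of the lysosome. Lipid build-up in podocytes and low ABCA1-dependent efflux have been described in Alport and diabetic kidney disease.

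Signal is the deposited value per library, which behaves as reads divided by a scaling factor of that library. Libraries held 45417221 to 83166742 reads, and the CYM50358 libraries included the deepest (60455130 to 83166742, against 57735687 to 62201989 for the treatment vehicle). Signal of Col4a3 was 938 to 1268 in wild-type libraries and 60.9 to 81.8 in the knockout libraries of the same table. It was 13.5 to 24.4 in the 9 treatment libraries. Of 12 podocyte markers, the defining marker Nphs1 was under signal 0.5 in all 15 libraries, while Synpo reached 286 to 846. Of 10 macrophage and leukocyte markers, 7 stayed under signal 1 in every group, and all 7 endothelial markers did so in the treatment libraries. Some markers of other cell types were high. Of the mesangial and fibroblast list Acta2 reached 5503 to 8074 and Pdgfrb 88.7 to 268. Of the parietal and tubular list Pax8 reached 187 to 272, and of the macrophage list Cd14 reached 11.5 to 44.6. Others in these lists were low. In each group 3 of 8 mesangial and fibroblast markers and 2 of 8 parietal and tubular markers stayed under signal 1, with Lum and Umod at 0.

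Both LXR genes were detected, at very different levels. To set genes beside each other, signal was divided by exon length in kilobases (GENCODE M21 exons). On this per-kilobase scale Nr1h2, which encodes the broadly expressed LXRβ, had a level of 22.4 ± 0.498 (SD, n = 3) in treatment vehicle libraries. Nr1h3, which encodes LXRα, the form prominent in liver and macrophages, had a level of 0.204 ± 0.139 in the same libraries. The ratio of Nr1h2 to Nr1h3 per kilobase ranged from 63.5 to 655 over the 15 libraries, with a median of 141. This wide range goes with the small number of Nr1h3 reads, which was 4 to 57 per library.

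The other members spanned a similar range in the treatment vehicle libraries. Npc2, a small soluble cholesterol carrier of the lysosome, was the highest at 47.7 ± 1.78 per kilobase. Lpcat3 followed at 26.5 ± 1.51, then Nr1h2, Abca1 at 18.8 ± 2.72, Srebf1 at 15.4 ± 0.511 and Mylip at 11.8 ± 0.610. Npc1, the membrane protein that receives cholesterol from NPC2, stood at 5.18 ± 0.184. Abcg1 (0.671 ± 0.118) and Apoe (0.489 ± 0.146) were the lowest apart from Nr1h3. Neighbours in this order did not overlap between libraries, except Abcg1 and Apoe. Apoe, the apolipoprotein that macrophages secrete in quantity, had only 38 to 133 reads per library over all 15 libraries.

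Under CYM50358, 4 of the 10 members rose and none fell (limma, adjusted p under 0.05), against 2.59% of all 13877 genes tested called in either direction and 1.34% called higher and 1.25% lower. Over all genes 186 were higher and 173 lower, or 232 and 123 with CPM of recovered reads in place of signal. The 4 were Srebf1, Mylip, Npc2 and Lpcat3, higher by 19.3% to 37.1%. All 10 members passed the filter on low values in this comparison. The difference was above 0 for all 10, and their median log2 difference was 0.25, beside −0.002 over all genes tested. The vehicle and CYM50358 libraries did not overlap for 5 of the 10, against 20.9% of all genes tested. In limma with no filter on low values, no member was called under CYM50358. The adjusted p-values were then 0.144 for Srebf1, 0.177 for Mylip, 0.164 for Npc2 and 0.229 for Lpcat3. In bulk RNA, a change in the share of cells and a change in RNA per cell cannot be told apart.

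**Figure D1:**
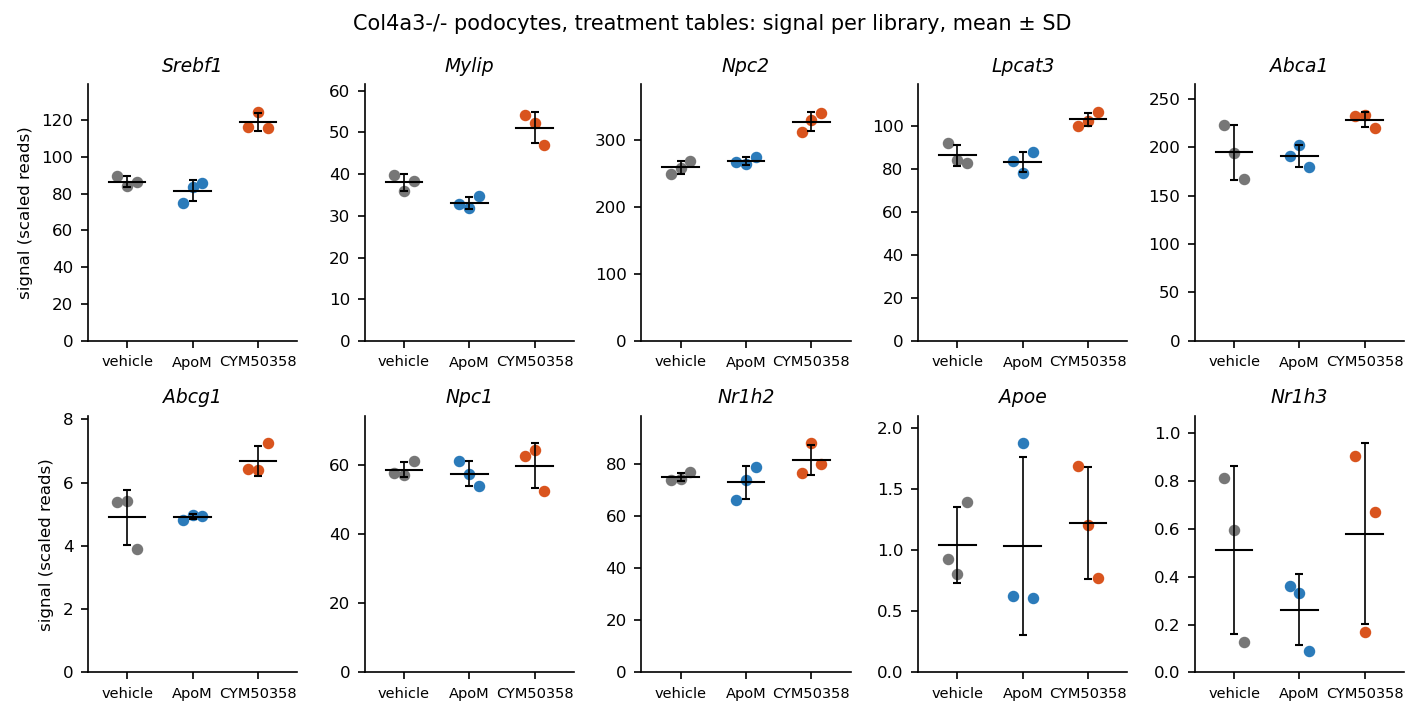
Signal of each member (vertical axis, scaled reads, from 0) in the vehicle, ApoM and CYM50358 libraries of Col4a3-/- cells (horizontal axis). Points are libraries, and lines and bars are the mean ± SD of 3. For Srebf1, Mylip, Npc2, Lpcat3 and Abcg1 the 3 CYM50358 points lie above all vehicle points.

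Srebf1 encodes SREBP-1, the transcription factor of fatty acid synthesis, and its SREBP-1c form is a direct LXR target. The gene lies at chr11:60089915-60113407 in mm39 (ENSMUSG00000020538.16). Its signal was 89.6, 83.9 and 86.2 in vehicle libraries, and 116, 124 and 115 in CYM50358 libraries. The groups were far apart, with every CYM50358 library at least as high as 115. The log2 difference was 0.45 ± 0.06 (SE), 95% interval 0.31 to 0.59, with a limma adjusted p of 0.000936. With each library left out in turn the adjusted p stayed between 0.00118 and 0.0214. Reads were counted per gene, so SREBP-1a and SREBP-1c transcripts are not separated.

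Srebf1 and Abca1 share letters just before a start site, shown here because both genes are textbook LXR targets. RefSeq windows of 250 bases before to 50 after each start (build GRCm38.p6, while the deposited locations are in mm39) were searched on both strands for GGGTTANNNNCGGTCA. This is an imperfect direct repeat with 4 free bases between its copies, the arrangement called DR4 that LXR with its partner binds. It was the only pattern of 6 fixed, 4 free and 6 fixed bases that an Abca1 window and an Srebf1 window shared, on either strand. Capitals mark the match, which lies on the strand opposite to the gene, so it reads in reverse complement. The Abca1 window is chr4:53159846-53160145, minus strand, with the match at −67 to −52 from the start.
Abca1: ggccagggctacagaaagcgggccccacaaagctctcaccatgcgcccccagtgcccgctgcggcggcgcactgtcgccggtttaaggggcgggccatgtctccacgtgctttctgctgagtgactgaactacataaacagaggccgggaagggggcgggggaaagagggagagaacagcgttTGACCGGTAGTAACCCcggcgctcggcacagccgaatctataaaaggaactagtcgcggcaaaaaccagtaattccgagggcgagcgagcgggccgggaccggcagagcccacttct
The Srebf1 window is chr11:60210422-60210721, minus strand, at the third of its RefSeq starts. Its exact match lies at −182 to −167, and a second run in capitals at −131 to −116 differs from the pattern by 2 letters.
Srebf1: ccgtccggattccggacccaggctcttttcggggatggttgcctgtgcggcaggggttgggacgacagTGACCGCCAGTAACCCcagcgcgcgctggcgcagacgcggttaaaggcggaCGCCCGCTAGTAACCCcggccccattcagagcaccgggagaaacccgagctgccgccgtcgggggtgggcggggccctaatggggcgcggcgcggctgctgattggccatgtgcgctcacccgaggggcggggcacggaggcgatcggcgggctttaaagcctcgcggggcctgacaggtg
The exact letters were found in 3 of 32851 windows (0.00913%), and the third belongs to Fasn, which encodes fatty acid synthase. Its window is chr11:120824498-120824797, minus strand, with the match at −225 to −210.
Fasn: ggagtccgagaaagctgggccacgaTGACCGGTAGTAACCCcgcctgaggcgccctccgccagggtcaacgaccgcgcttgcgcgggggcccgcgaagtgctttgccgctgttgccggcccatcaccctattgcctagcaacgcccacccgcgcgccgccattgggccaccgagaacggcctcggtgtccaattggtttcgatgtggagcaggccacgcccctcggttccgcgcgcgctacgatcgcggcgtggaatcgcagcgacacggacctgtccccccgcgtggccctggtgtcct
The Abca1 and Fasn copies are the same 16 bases, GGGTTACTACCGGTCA read on the strand of the repeat, while Srebf1 holds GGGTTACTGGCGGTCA. The pattern was taken from the Abca1 and Srebf1 windows themselves, so its rarity says nothing further about them. With up to 2 mismatches it occurs in 0.995% of windows. Under CYM50358, log2 differences of these 3 genes were 0.45 for Srebf1, which rose, 0.24 for Abca1 and 0.005 for Fasn (limma adjusted p = 0.98), whose mean signal was 359.7 in vehicle. A match describes letters only. Mylip, Lpcat3 and Npc2 held no match with up to 2 mismatches in these windows.

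Mylip encodes the ubiquitin ligase also called IDOL, which targets lipoprotein receptors. The gene lies at chr13:45543218-45565498 (mm39, ENSMUSG00000038175.11). Its signal was 39.8, 35.9 and 38.4 in vehicle libraries, and 54.3, 52.2 and 47.0 in CYM50358 libraries. The groups did not overlap, and the mean was 34.6% higher. The log2 difference was 0.42 ± 0.08 (SE), with a limma adjusted p of 0.0103. Without vehicle replicate 2 the adjusted p was 0.0618, and without CYM50358 replicate 2 it was 0.0776.

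Npc2 (chr12:84801336-84819926, mm39, ENSMUSG00000021242.10) had a signal of 249.9, 259 and 269 in vehicle libraries and of 312, 330.0 and 340.3 in CYM50358 libraries. Its mean was 26.3% higher with no overlap. The log2 difference was 0.34 ± 0.06, with a limma adjusted p of 0.00542. Without CYM50358 replicate 2 it was 0.0561. Its partner Npc1 showed 57.8, 57.2 and 61.1 in vehicle and 62.6, 64.4 and 52.5 with CYM50358. These overlapped, and the 95% interval of the Npc1 log2 difference was −0.15 to 0.19.

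Lpcat3 encodes an acyltransferase that puts polyunsaturated chains into phospholipids. The gene lies at chr6:124639990-124681381 (mm39, ENSMUSG00000004270.14). Its signal was 92.1, 84.2 and 83.0 in vehicle libraries, and 100.3, 103 and 107 in CYM50358 libraries. The log2 difference was 0.25 ± 0.07 with a limma adjusted p of 0.0494, at the edge of the threshold. Leaving out vehicle replicate 2 or 3, or CYM50358 replicate 1, 2 or 3, gave adjusted p-values of 0.165, 0.145, 0.0549, 0.159 and 0.145 in that order, and edgeR gave 0.0631.

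The efflux transporters did not pass the test under CYM50358. Abca1 (chr4:53030787-53159895, mm39, ENSMUSG00000015243.5), which loads cholesterol onto lipid-poor apolipoproteins, had a signal of 223, 194 and 167 in vehicle libraries and of 233, 234 and 219.6 with CYM50358. Vehicle replicate 1 reached the CYM50358 range, and the log2 difference was 0.24 with a 95% interval of 0.07 to 0.41 (limma adjusted p = 0.123). Without that library it was 0.34, with an adjusted p of 0.0246. Over all fits with 1 library left out it ranged from 0.13 to 0.34, with adjusted p up to 0.414. Of 16 alternatives, 2 called Abca1. Abcg1 (chr17:31276649-31336962, mm39, ENSMUSG00000024030.8), which exports cholesterol to mature HDL, had 5.38, 5.42 and 3.90 in vehicle and 6.43, 6.39 and 7.24 with CYM50358. The groups did not overlap, yet the log2 difference of 0.39 had a wide 95% interval of 0.04 to 0.74 and a limma adjusted p of 0.229.

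The receptors and Apoe gave no call under CYM50358 either. Nr1h2 had 73.9, 74.1 and 76.9 in vehicle and 76.6, 87.8 and 79.9 with CYM50358, a log2 difference of 0.12 with a 95% interval of −0.03 to 0.26. Nr1h3 had 0.814, 0.596 and 0.128 in vehicle and 0.905, 0.167 and 0.671 with CYM50358, so its libraries varied more within groups than between them. Apoe had 0.930, 0.807 and 1.40 in vehicle and 1.69, 1.21 and 0.777 with CYM50358. Intervals for these low genes reach from −0.45 to 0.58 for Nr1h3 and from −0.34 to 0.57 for Apoe, so changes of the size seen for the called members were not detectable in them.

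The authors' deposited table calls the same 4 members. It gives log2 fold changes of 0.46 for Srebf1 (adjusted p = 1.2e-08), 0.34 for Npc2 (7.0e-08), 0.43 for Mylip (6.1e-05) and 0.26 for Lpcat3 (0.0062). Of 11465 genes with an adjusted p in the authors' deposited table, 8.36% are called for CYM50358, and Abca1 (0.0642) is not. Some marker sums moved with the treatment. The summed signal of 8 markers of dividing cells was 139 to 149 in vehicle, 129 to 137 with ApoM and 120.1 to 126 with CYM50358, with none of the 8 called against vehicle. In the direct comparison 1 of them, Cenpe, was called, at 10.9 with ApoM and 7.07 with CYM50358 (mean signal, limma adjusted p = 0.025). The summed signal of 8 mesangial and fibroblast markers was 7099.7 to 8389.8 in vehicle, 6268.4 to 7416.9 with ApoM and 6351 to 6884 with CYM50358, with none called. Acta2 made up most of this sum, with mean signals of 7603, 6504 and 6269 in that order. Of 5 tested markers, 1 had a difference above 0 with each treatment, Pdgfrb, with means of 99.0, 104.8 and 102.6. Of 6 tested parietal and tubular markers, 1 rose under CYM50358, Cldn2 from a mean signal of 9.20 to 14.1 (adjusted p = 0.0278), and 1 fell, Lrp2 from 185 to 143 (0.0236). Both were also called against ApoM, where their means were 8.68 and 180.5. Their part in the members' changes was not tested.

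With ApoM, 0 of the 9 tested members passed (limma, adjusted p under 0.05), against 0.0434% of 13839 genes tested (0.0145% higher, 0.0289% lower). Nr1h3 missed the filter on low values. At an unadjusted p under 0.05 there was 1 member, Mylip, against 5.46% of all genes, and edgeR and DESeq2 also called none. The authors' deposited table for ApoM, in which 0.0628% of genes with an adjusted p are called, calls no member. Mylip signal was 32.8, 31.8 and 34.7 with ApoM, below all vehicle libraries, as for 10.7% of all genes in either direction. Its log2 difference was −0.19 with a 95% interval of −0.36 to −0.03 and a limma adjusted p of 0.814.

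The remaining members overlapped between ApoM and vehicle. Srebf1 had 75.1, 83.7 and 85.7 with ApoM, a log2 difference of −0.09 with a 95% interval of −0.22 to 0.05. Abca1 had 191, 202 and 180.1, a difference of −0.02 (−0.19 to 0.15). Abcg1 had 4.83, 4.99 and 4.94, a difference of 0.02 (−0.31 to 0.34). Npc2 was at 268, 264 and 275 and Lpcat3 at 83.8, 78.3 and 87.9, with intervals of −0.06 to 0.17 and −0.19 to 0.08. The upper end of the interval lay below 0.20 for Srebf1, Abca1, Npc2 and Lpcat3. Nr1h2 (66.0, 73.7 and 78.9), Npc1 (61.1, 57.5 and 54.0) and Apoe (0.624, 1.88 and 0.607) had intervals of −0.19 to 0.10, −0.17 to 0.11 and −0.53 to 0.42. Nr1h3 signal was 0.361, 0.334 and 0.0903.

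**Figure D2:**
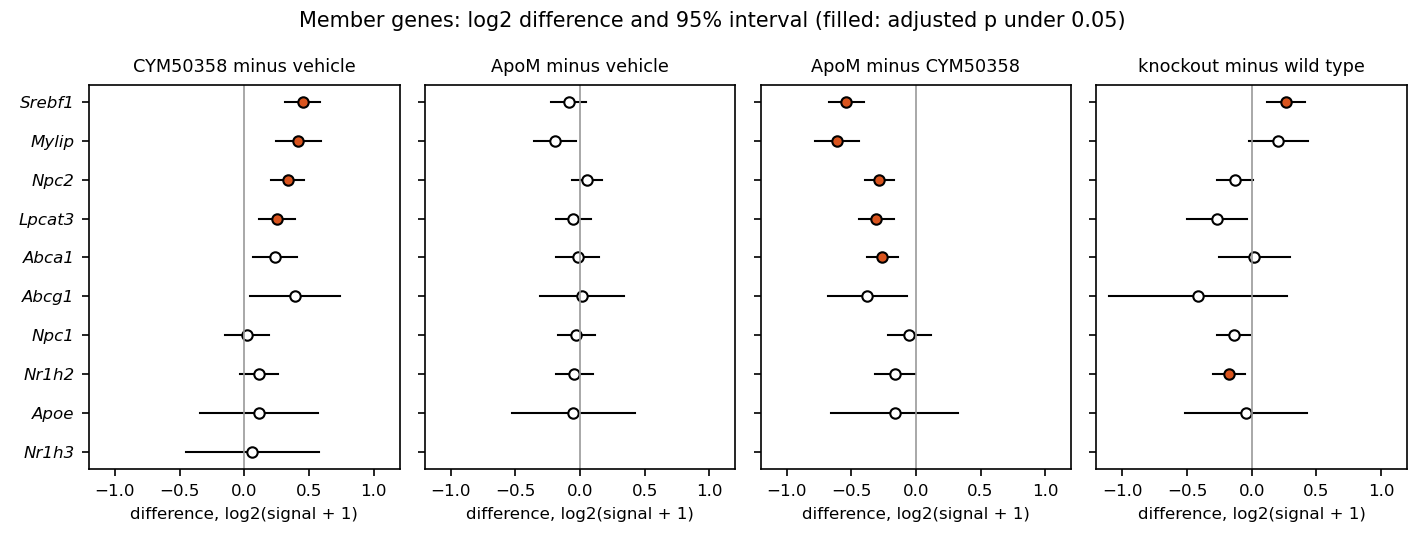
Difference of each member on the log2(signal + 1) scale (horizontal axis) in the 4 comparisons, with 95% intervals as lines. Filled points have a limma adjusted p under 0.05. Filled points lie to the right for CYM50358 against vehicle, there are none for ApoM against vehicle, and they lie to the left for ApoM against CYM50358.

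ApoM and CYM50358 libraries were compared directly, since both vehicle comparisons share the same 3 vehicle libraries. Of 9 tested members, 5 were lower with ApoM and none higher, against 2.59% of 13878 genes called in either direction with 1.22% higher and 1.37% lower. All 9 differences were below 0, with a median of −0.28 beside 0.0006 over all genes, and 6 of 9 did not overlap, against 19.5% of all genes. The farthest from 0 were Mylip at −0.61 ± 0.08 (SE, adjusted p = 8.5e-05) and Srebf1 at −0.54 ± 0.07 (3.4e-05). Npc2 differed by −0.28 ± 0.05 (0.0051) and Lpcat3 by −0.31 ± 0.06 (0.010). Abca1, not called against vehicle, was at −0.26 ± 0.06 with an adjusted p of 0.017, from 191 ± 11.1 with ApoM and 229 ± 7.82 with CYM50358 (SD, n = 3).

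The Abca1 and Lpcat3 calls of the direct comparison were lost when some libraries were left out. Without ApoM replicate 1 or 3 or CYM50358 replicate 2, the Abca1 adjusted p was 0.0917, 0.0684 and 0.101, and with all 9 treatment libraries in 1 fit it was 0.0890. Without ApoM replicate 1 or 2 or CYM50358 replicate 2, that of Lpcat3 was 0.0533, 0.105 and 0.0545. In limma with no filter on low values no member was called, and Mylip and Srebf1 had adjusted p-values of 0.0804 and 0.0805. Abcg1 differed by −0.37 (95% interval −0.68 to −0.07, limma adjusted p = 0.206) with no overlap. Nr1h2 differed by −0.16, Apoe by −0.16 and Npc1 by −0.05, none passing the test. Same-numbered libraries deviated together here, and with the replicate number as a block 671 genes were called higher and 503 lower, against 170 and 190 without it, while the count of members lower stayed 5.

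Other genes of the same pathways were read from 8 lists holding 96 genes. Under CYM50358, 3 of 7 tested further LXR targets were called higher and none lower, against 1.34% and 1.25% of all genes tested. They were Scd1 (log2 difference 1.14, signal 123 ± 9.07 to 275 ± 51.9) and Scd2 (0.84), the stearoyl-CoA desaturases, and Pltp (0.34), the phospholipid transfer protein. The difference was above 0 for 5 of the 7. Arl4c was lower with no overlap, at 228.8 to 247.3 in vehicle and 196.4 to 210.9 with CYM50358. So was Rnf145, at 186.8 to 211.2 and 180.0 to 186.2, and neither was called. Of 10 tested SREBP-1 fatty acid targets, 2 rose, the desaturases Fads1 (0.33) and Fads2 (0.31). Of 12 genes of SREBP control and MYLIP substrates, 3 rose, among them Insig1 (0.68), which holds SREBPs in the endoplasmic reticulum, and Sqle (0.32), a cholesterol synthesis enzyme known mainly as a target of SREBP-2.

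The list medians under CYM50358 were 0.34 for the further LXR targets, 0.19 for the fatty acid targets and 0.08 for SREBP control, beside −0.002 over all genes. Of 15 genes of lysosomal and intracellular transport, 1 rose, Lamp1 (0.27), a lysosomal membrane protein. Of 4 tested oxysterol and desmosterol enzymes, 1 rose. None passed among 10 LXR partners and coregulators, 8 further efflux and ester genes and 8 LPCAT relatives. The LXR partner Rxra was at 68.5 in vehicle and 68.5 with CYM50358.

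**Figure D3:**
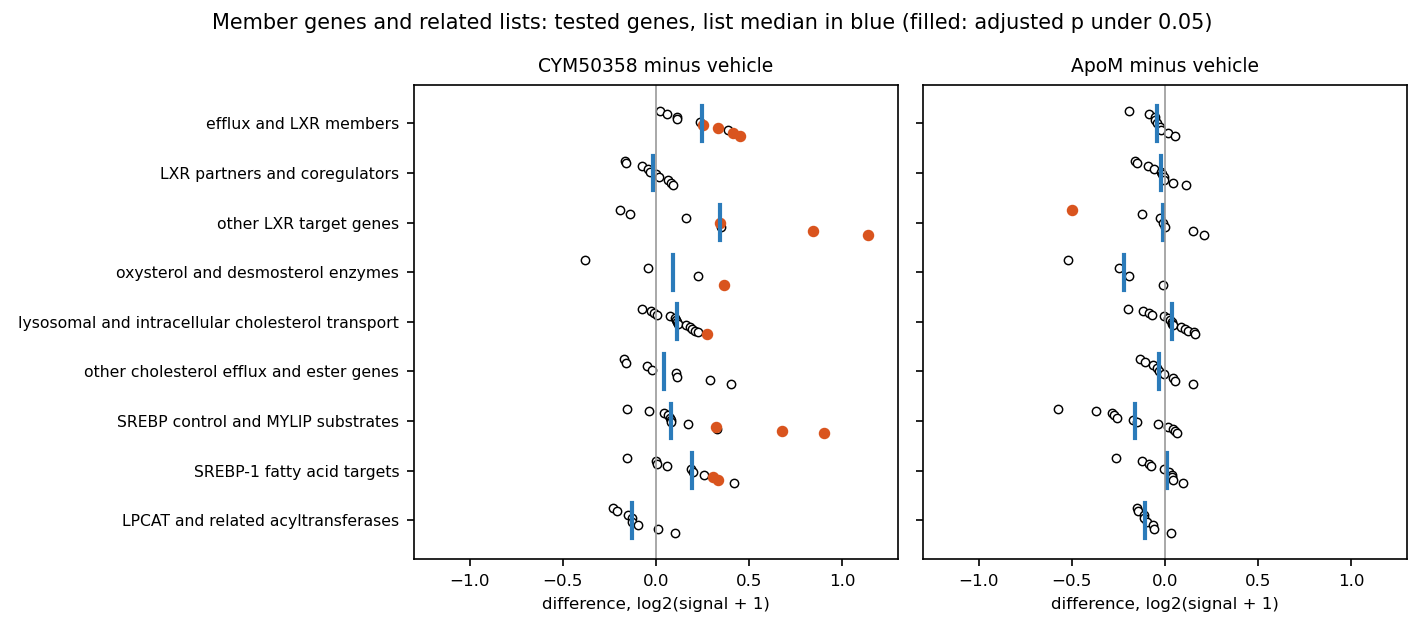
Log2 differences (horizontal axis) of the tested members and of the tested genes of 8 related lists (vertical axis) for CYM50358 and for ApoM against the same vehicle libraries. Filled points have a limma adjusted p under 0.05 and blue bars are list medians. Called genes lie to the right under CYM50358, with Scd1 at 1.14, and the only called gene with ApoM is Scd1 at −0.50.

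With ApoM, 1 gene of the 8 lists passed: Scd1 fell, from a signal of 123 ± 9.07 to 86.8 ± 6.92 (log2 difference −0.50, limma adjusted p = 0.0055). Of all genes tested, 0.0289% were called lower with ApoM and 0.0145% higher. Srebf2 differed by −0.15 without passing. In the direct comparison 2 of 7 further LXR targets (Scd1 −1.64, Scd2 −0.97), 5 of 12 genes of SREBP control (with Insig1 −0.95 and Sqle −0.58) and 5 of 10 fatty acid targets (with Fads1 −0.30, Acly −0.28, Elovl6 −0.52 and Fads2 −0.27) were lower with ApoM. Lamp1 (−0.23) was lower too, as was 1 of 4 tested oxysterol and desmosterol enzymes. Of all genes tested in the direct comparison, 1.37% were called lower and 1.22% higher. No gene of the 8 lists was called higher with ApoM than with CYM50358, though some had differences above 0, among them 3 of the 7 further LXR targets.

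Across the 9 treatment libraries, the genes whose log2 signal was most like each called member were found by Pearson r among 7127 genes of above-median level. This is a description over libraries that share their treatment groups. For Mylip they were Scd1 (r = 0.989), Retreg2 (0.981) and Lss (0.971). For Srebf1 they were Tmem98 (0.977), Retreg2 (0.977) and Aldh3b1 (0.975). For Npc2 they were Gpx3 (0.985), Ctsa (0.982) and Atp6v0d1 (0.978). Ctsa encodes a lysosomal protease and Atp6v0d1 a subunit of the lysosomal proton pump. For Abca1 they were Slc27a1 (0.945), Atp6v0a1 (0.910) and Msl1 (0.907). Lpcat3 was nearest to Ndufa13 (0.964), Uqcrh (0.955) and Hcfc1r1 (0.955). Among the members, r was 0.951 between Mylip and Srebf1 and 0.544 between Abca1 and Npc2.

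Between genotypes, 1 of 9 tested members rose in vehicle-treated knockout cells and 1 fell, against 44.7% of 14313 genes called in either direction. Srebf1 rose and Nr1h2 fell. The groups did not overlap for 3 of 9 members, against 55.8% of all genes. Called higher were 22.6% of all genes, and called lower 22%. The median log2 difference of the members was −0.13, beside 0.003 over all genes. Nr1h3 missed the filter, with 0.375, 0.383 and 0.756 in wild-type and 0.244, 0.0774 and 0.448 in knockout libraries.

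**Figure D4:**
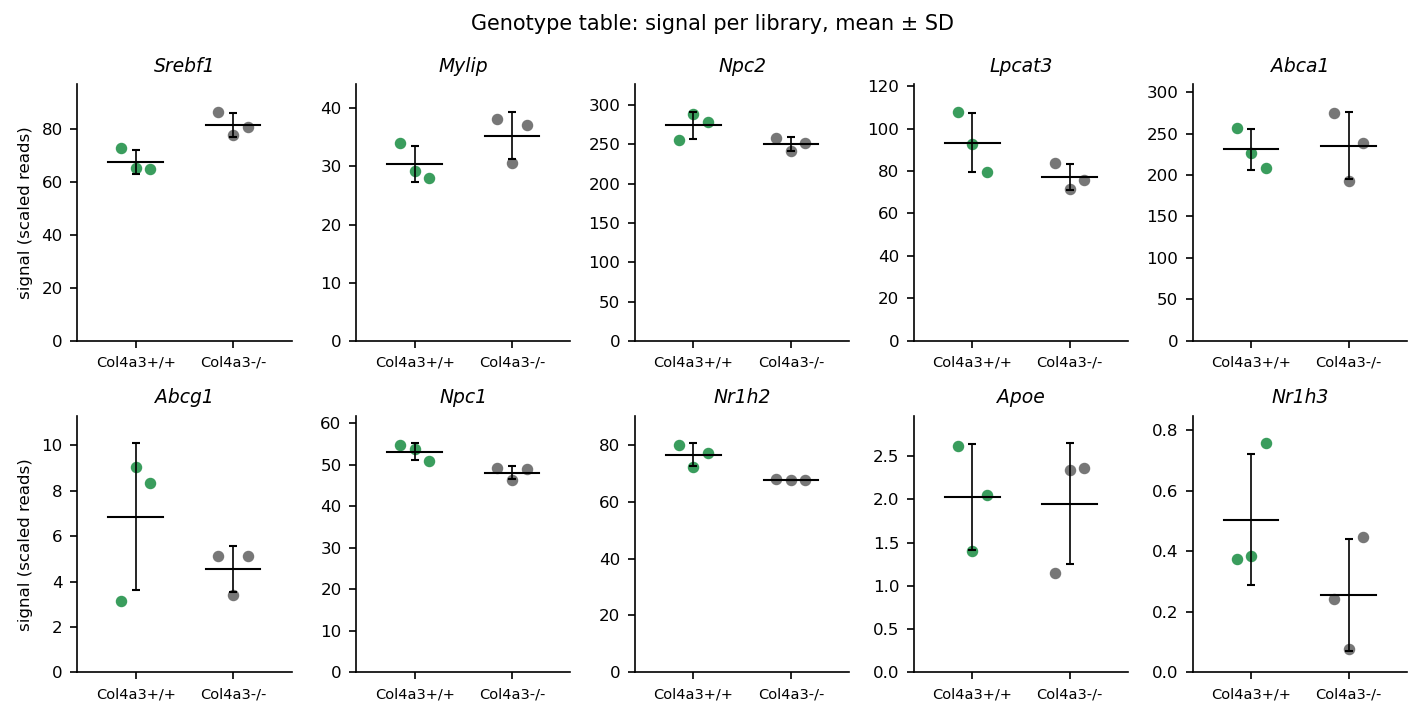
Signal of each member (vertical axis, scaled reads, from 0) in wild-type and knockout vehicle libraries of the genotype table (horizontal axis). Points are libraries, and lines and bars are the mean ± SD of 3. The groups separate for Srebf1 (higher in knockout), Nr1h2 and Npc1 (lower in knockout), and wild-type Abcg1 spans 3.16 to 9.05.

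Srebf1 had a signal of 72.9, 65.3 and 65.1 in wild-type libraries and of 86.6, 77.8 and 80.8 in knockout libraries. It was 20.6% higher with no overlap, a log2 difference of 0.27 ± 0.07 (limma adjusted p = 0.0092), and was called under all 16 alternatives run. Nr1h2 had 80.0, 72.1 and 77.1 in wild-type libraries and 67.8, 67.5 and 67.6 in knockout libraries, with no overlap. Its log2 difference of −0.17 had a limma adjusted p of 0.030 and was called in 9 of 16 alternatives. The call was lost without wild-type replicate 1 (0.0620) or 3 (0.0862), or knockout replicate 1 (0.0724), 2 (0.0771) or 3 (0.0806).

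Lpcat3 had 108, 92.7 and 79.7 in wild-type libraries and 83.7, 71.8 and 75.7 in knockout libraries. Its log2 difference of −0.27 did not pass (limma adjusted p = 0.0629). With the replicate number as a block the adjusted p was 0.0093, though pairing by number was not clear between genotypes. With libraries left out in turn the Lpcat3 adjusted p ranged from 0.0127, without wild-type replicate 3, to 0.190. Of 16 alternatives, 3 called Lpcat3. Mylip had 34.0, 29.3 and 28.1 in wild-type and 38.2, 30.7 and 37.1 in knockout libraries, a difference of 0.21 with a limma adjusted p of 0.126. With the replicate block it was 0.0484, without wild-type replicate 1 0.0272 and without knockout replicate 2 0.0377. Other left-out libraries took it up to 0.333, and 3 of 16 alternatives called Mylip. With the block, 2 members were higher and 2 lower.

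Abca1 had 257, 227 and 209 in wild-type and 274, 193 and 239 in knockout libraries, overlapping, with a 95% interval of −0.26 to 0.29 on the log2 scale. Abcg1 had 3.16, 9.05 and 8.36 in wild-type and 5.11, 3.41 and 5.14 in knockout libraries. The low value belongs to wild-type replicate 1, and the log2 difference of −0.41 (limma adjusted p = 0.301) became −0.82 (0.0015) without that library. Over all fits with 1 library left out, the Abcg1 difference ranged from −0.82 to −0.18 and its adjusted p reached 0.678. Of 16 alternatives, 1 called Abcg1. Npc1 had 54.7, 53.6 and 50.8 in wild-type and 49.2, 46.2 and 48.8 in knockout libraries, which did not overlap, with a difference of −0.14 and an adjusted p of 0.0744. Npc2 had 255, 288 and 279 in wild-type and 258, 241 and 251 in knockout libraries, a difference of −0.13 (0.112) that became −0.18 (0.018) without wild-type replicate 1. Over all fits with 1 library left out, the Npc2 difference ranged from −0.18 to −0.094 and its adjusted p reached 0.313. Of 16 alternatives, 1 called Npc2. Apoe had 2.62, 1.41 and 2.05 in wild-type and 1.15, 2.34 and 2.36 in knockout libraries, with an interval of −0.51 to 0.42.

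In the authors' deposited table for the genotypes, Srebf1 (adjusted p = 0.0058) and Lpcat3 (0.039) are called, and Nr1h2 (0.064) is not, with 29.9% of its 21282 genes called. The genotype difference also varied by chromosome. The median log2 difference was −0.17 over chromosome 6, which carries Lpcat3, −0.16 over chromosome 4, which carries Abca1, and −0.10 over chromosome 18, which carries Npc1. With chromosome medians subtracted, Lpcat3 differed by −0.09, Npc1 by −0.036 in place of −0.14 and Abca1 by 0.18 in place of 0.02, with limma adjusted p-values of 0.509, 0.659 and 0.273. Marker sums differed as well: podocyte markers summed to 1345 to 1612 in wild-type and 1033 to 1144 in knockout libraries, dividing-cell markers to 245 to 350.3 and 179 to 195, endothelial markers to 7.85 to 11.1 and 1.09 to 1.65, and macrophage markers to 23.7 to 28.5 and 30.5 to 36.7. Mesangial and fibroblast sums, made up mostly of Acta2, overlapped (5775.6 to 7912.5 and 7010.5 to 8082.5). Yet 3 of the 7 tested markers rose and 1 fell. Col1a1 went from a mean signal of 24.3 to 473 and Col3a1 from 9.42 to 196, while Pdgfrb fell from 252 to 115. Parietal and tubular sums overlapped too (747 to 945 and 713 to 879), with 1 of 6 higher, Cdh16 from 71.1 to 198, and 2 lower, with Cldn2 going from 61.6 to 6.81. Their part in the members' differences was not tested.

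Between genotypes the counts of the related lists stand beside 44.7% of all genes called, 22.6% higher and 22% lower. Of 8 tested further LXR targets, 6 were higher in knockout cells, with Pltp (log2 difference 1.44), Rnf145 (0.44), Scd2 (0.71) and Scd1 (0.60) among them, and 2 lower, with Smpdl3a at −2.02. Of 12 genes of SREBP control and MYLIP substrates, 6 were higher, with Insig1 at 0.85, and 1 lower, the MYLIP substrate Lrp8 at −0.44. Of 15 genes of lysosomal and intracellular transport, 4 were higher, including Scarb2 (0.98), a lysosomal membrane protein, and Lipa (0.84), the lysosomal acid lipase, and 1 lower, Gramd1b (−0.41). Of 10 LXR partners and coregulators, 3 were higher, including Sirt1 (0.51) and Rxra (0.18), and 1 lower, Nrip1 (−0.33). Fatty acid targets split 4 higher and 3 lower of 10, further efflux and ester genes 4 and 3 of 8, LPCAT relatives 2 and 2 of 8, and oxysterol enzymes 1 and 0 of 6. The shares called of the lysosomal transport genes (5 of 15), of the LXR partners (4 of 10) and of the oxysterol enzymes were below that of all genes.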

How the data were processed

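Libraries made with an mRNA-seq kit from 15 samples were read from 3 tables, ApoM against vehicle, CYM50358 against vehicle and knockout against wild type. The submitters' processing notes name mm39 as the build and list STAR, edgeR, FastQC and Trim Galore. Settings, versions and strandedness of counting were not given in the sources used here, so reads of overlapping genes cannot be told apart. The library columns hold signal that the authors deposited with no stated unit. In every library 100% of values above 0 were whole multiples of the value of 1 read (tolerance 0.01 read), so reads were recovered from the signal. Log2 fold changes, p-values and adjusted p-values are the authors' own, per the file headers. The 3 vehicle columns of the treatment tables were identical and were used once, and the genotype table was normalized separately, so no test was run across tables.

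The test was limma 3.58.1 with a mean-variance trend on log2(signal + 1), on the 2 groups compared, for genes with signal of 0.5 or more in at least 3 libraries. P-values were adjusted over all genes tested (Benjamini-Hochberg), and a gene is called at an adjusted p under 0.05. A fold change on this scale understates the change of low genes. Alternatives were a pseudocount of 0.1, no filter, a filter of 5, CPM of recovered reads with and without TMM, edgeR 4.0.16, DESeq2 1.42.0, a replicate block, all 9 treatment libraries in 1 fit or chromosome medians subtracted, and each library left out. On recovered reads edgeR called 2 genes higher and 4 lower for ApoM, 148 and 116 for CYM50358, 134 and 172 in the direct comparison, and 3236 and 3106 between genotypes. The limma and edgeR steps were tested on simulated data.

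Groups share replicate numbers in the labels. Same-numbered libraries deviated together between ApoM and CYM50358 (r = 0.132, 0.115 and 0.132), which counts as paired, but not against the treatment vehicle. Between ApoM and CYM50358, differently numbered libraries had r of −0.108 to −0.0134. Deviations were taken from each group's own mean, so a positive r for same-numbered libraries pushes the others below 0. These negative values are therefore no separate support for pairing. Between genotypes, same-numbered libraries had r of 0.371, 0.217 and 0.105 and differently numbered ones −0.298 to 0.197. These ranges overlap, so pairing by number is not clear between genotypes. Exon lengths are from GENCODE M21 and promoter windows from RefSeq, and 8 members had a printable window. The members, the 8 pathway lists and the 6 marker lists were chosen with earlier results of these data known. Named genes were the 10 members, up to 4 called genes of each list with the smallest p, and the 3 genes most like each member. Other genes named beside these were chosen after their values were seen. They are marker genes, Fasn, Srebf2, Rxra, Arl4c and Rnf145 in the treatment comparisons, and Scd1 and Gramd1b between genotypes. Some genes of the lists are not reported here.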

Additional observations from a re-analysis of the deposited data

Results flagged for a closer look

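Against the same vehicle libraries, ApoM and CYM50358 gave different values for 5 members, and the direct comparison of ApoM with CYM50358 libraries tests that difference. The log2 difference, ApoM minus CYM50358, was −0.5377 for Srebf1, −0.6104 for Mylip, −0.2823 for Npc2, −0.3063 for Lpcat3 and −0.2590 for Abca1. Each passed a limma adjusted p under 0.05, and for each gene all 3 ApoM libraries lay below all 3 CYM50358 libraries. No member was marked as holding a library far from the others, since groups of 3 were not examined for that.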

How the results depend on the processing

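Over the members and the alternatives run, 524 results kept their direction and side of the threshold, 34 calls were lost, 10 were gained and 18 differences changed sign. In limma with no filter on low values, members called fell from 4 to 0 for CYM50358 and from 5 to 0 for ApoM against CYM50358. The calls of all genes fell to 0 higher and 1 lower, and to 3 and 3, in that order. The cause was not tested. Between genotypes, CPM of recovered reads left 0 members called lower, and the replicate block gave 2 higher and 2 lower. With libraries left out in turn, members called ranged from 1 to 5 (higher with CYM50358), from 3 to 5 (lower with ApoM than with CYM50358), from 1 to 2 (higher in knockout) and from 0 to 2 (lower in knockout). Every sign change came from leaving out a library, in members that were not called. Their ranges were −0.10 to 0.15 for Abca1 and −0.20 to 0.17 for Apoe between genotypes. With ApoM they were −0.125 to 0.084 for Abca1, −0.112 to 0.082 for Abcg1, −0.10 to 0.025 for Nr1h2, −0.072 to 0.015 for Npc1 and −0.33 to 0.091 for Apoe. With CYM50358 they were −0.14 to 0.27 for Nr1h3, −0.0325 to 0.11 for Npc1 and −0.036 to 0.26 for Apoe, and in the direct comparison −0.14 to 0.0036 for Npc1.

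Counts over all genes moved more than 1.5 times in several settings. For CYM50358 against vehicle (186 higher, 173 lower), DESeq2 gave 334 and 369, all 9 treatment libraries in 1 fit 286 and 310, and leaving out a library 50 to 217 and 28 to 257. For the direct comparison (170 and 190), DESeq2 gave 311 and 280 and leaving out a library 57 to 318 and 73 to 224. For ApoM (2 and 4), DESeq2 gave 6 and 12, no filter and the 9-library fit 0 and 0, and leaving out a library 0 to 4 and 0 to 8. Against the treatment vehicle the libraries share only a replicate number. There the block gave 233 higher and 299 lower for CYM50358, with Abca1 then at an adjusted p of 0.0470, and 6 and 11 for ApoM. The block changed no call of the members in the direct comparison. Nr1h3 and Apoe have too few reads for changes of the size called elsewhere to be detectable.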
